A study of Mus musculus with 12 samples.

Results

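The genes described are 32 mouse genes of innate sensing, interferon signalling, the antiviral response and class I antigen presentation, chosen by name and not by their values. They were found through the transcript accessions of the array's probes, with Tmem173 taken as the older symbol of Sting1. All 32 genes had a probe, 40 probes in all among 55681 probes on the array. Of the 32 genes, 28 passed the filter on dim signal and were tested among 24463 genes, and 4 (Tlr3, Irf7, Ifit1 and Ifit3) were not tested. Total RNA of a mouse embryonic stem cell line was hybridised to 12 one-colour Agilent arrays, 3 for each of 4 groups. Nat1-null cells were grown in 2i+LIF or in LIF, and so were wild-type cells, all on plates coated with gelatin, so that every group received LIF. The cytokine LIF holds these cells in an undifferentiated state, and 2i adds inhibitors of the kinases MEK and GSK3. Nat1 is here the translation initiation factor Eif4g2 (also DAP5), a relative of eIF4G, rather than the N-acetyltransferase gene that now carries the symbol. The labels do not say how the gene was removed, how many clones were used or whether replicates came from separate cultures. The p-values therefore measure the spread between these arrays.

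Cells detect foreign nucleic acid through sensors such as Ifih1 (MDA5) and the DNA-sensing adaptor Sting1, which lead to the production of interferons. Interferon bound to its receptor activates a complex that includes Stat2 and Irf9 and binds a promoter sequence called the interferon-stimulated response element (ISRE), while interferon gamma acts at GAS elements and through Irf1. The genes switched on include antiviral effectors and the machinery that cuts, transports and displays peptides on class I molecules. Mouse embryonic stem cells are known for a weak interferon response and low class I levels compared with differentiated cells, and also for constitutive expression of some antiviral genes of the Ifitm family.

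Levels below are log2 signals relative to the 75th percentile of the same array, with n = 3 arrays in each group, and a level of one gene cannot be set against that of another. Of 59305 gene-directed spots per array, 49.8% to 66.3% were well above background, and the number of arrays limits the precision. Eif4g2 averaged 1.31 ± 0.10 in Nat1-null 2i+LIF and 4.20 ± 0.10 in wild-type 2i+LIF, and 1.28 ± 0.04 in Nat1-null LIF against 4.49 ± 0.05 in wild-type LIF (mean ± SD). It was thus 7.42-fold lower in Nat1-null cells in 2i+LIF and 9.28-fold lower in LIF. Slide 3 held the 6 Nat1-null arrays, slide 2 those of wild-type 2i+LIF and slide 1 those of wild-type LIF. The slide and the genotype thus cannot be told apart, nor can the slide and the medium in wild-type cells, and 2i+LIF was compared with LIF within a slide in Nat1-null cells alone. On slide 3 the 3 Nat1-null 2i+LIF arrays and replicate 3 of Nat1-null LIF shared array row 2, with negative-control means between -16.4 and -10.2, whereas replicates 1 and 2 of Nat1-null LIF lay in row 1.

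Which group was brightest differed between the genes. Of 28 tested genes, 4 had their highest group mean in Nat1-null 2i+LIF, 8 in Nat1-null LIF, 0 in wild-type 2i+LIF and 16 in wild-type LIF. The lowest mean was in wild-type 2i+LIF for 12 genes, in wild-type LIF for 7, in Nat1-null LIF for 6 and in Nat1-null 2i+LIF for 3. Across all tested genes of the array, 33.2% were highest in wild-type LIF and 16.9% were lowest in wild-type 2i+LIF. Of the 28 genes, 6 (Ifih1, Oasl2, Gbp2, Gbp3, Psmb8 and Nlrc5) passed the filter through wild-type LIF alone, so that they had to be higher there, and Ifit2 and Tap1 passed through the wild-type groups alone. The differences of these 8 from wild-type LIF, and of Ifit2 and Tap1 from wild-type 2i+LIF, are therefore given as descriptions, without a p-value. So are the counts that include them. The other 20, called bright here, exceeded background on each of the 12 arrays. Of the bright genes, 4 were highest in Nat1-null 2i+LIF, 8 in Nat1-null LIF, 0 in wild-type 2i+LIF and 8 in wild-type LIF (Ifnar1, Isg15, Psmb9, Psmb10, Tap2, B2m, H2-K1 and H2-D1). Across 18980 genes of the array that were well above background on all arrays, 26.2% were highest in wild-type LIF.

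**Figure D1:**
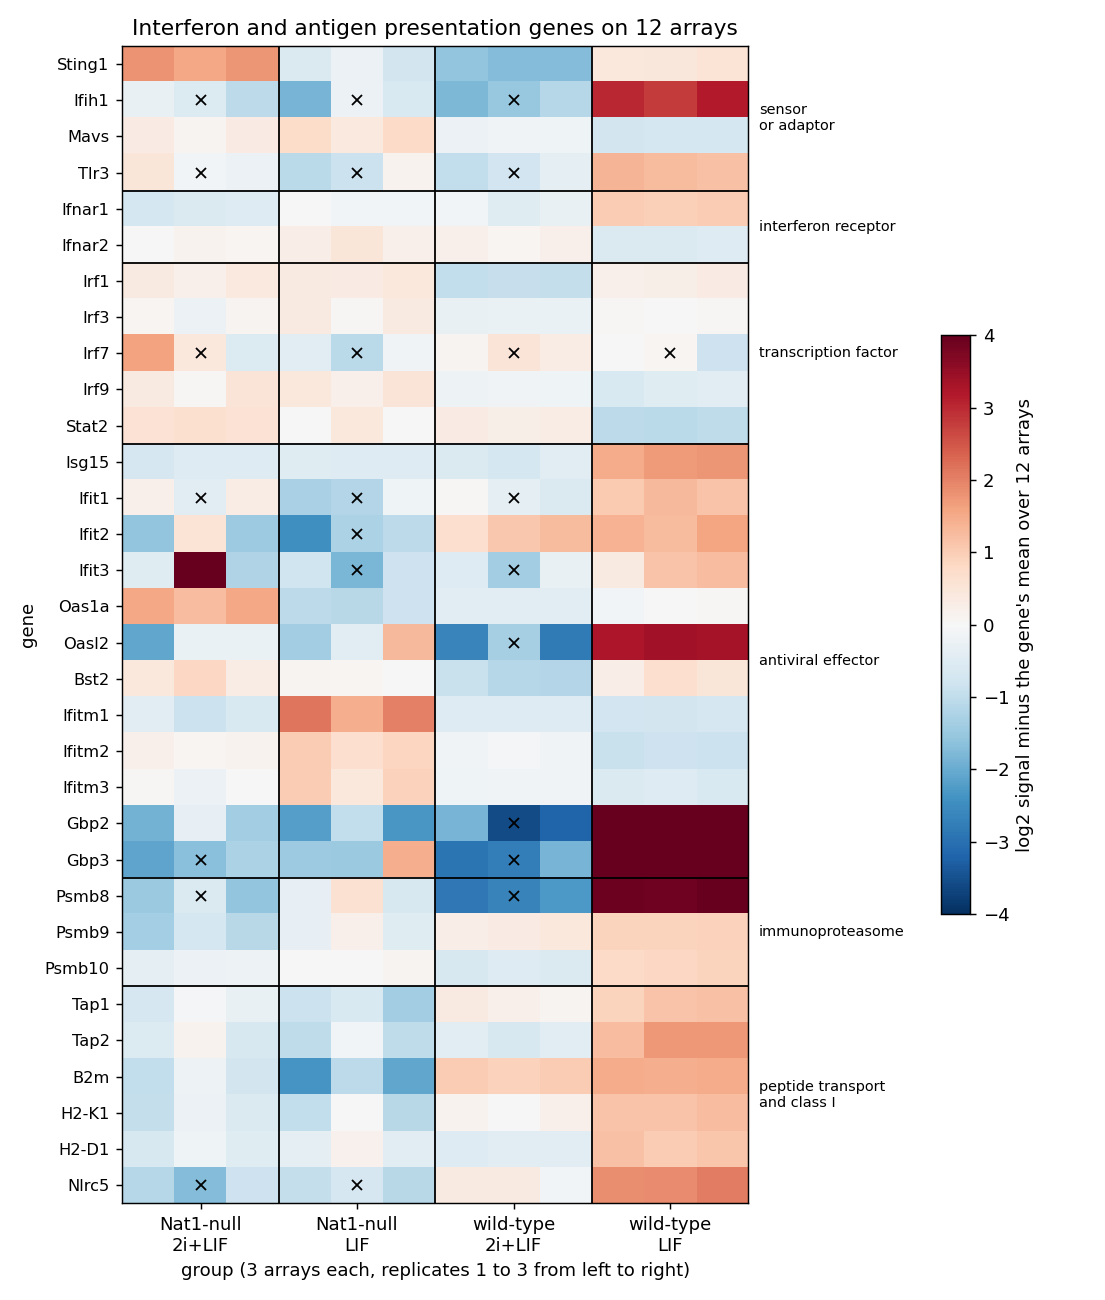
Signal of all 32 genes (rows, grouped by role) on the 12 arrays (columns, 3 per group), drawn as the log2 signal minus the mean of that gene over the 12 arrays; the colour scale ends at 4 in both directions, and a cross marks a group in which the gene was well above background on 0 of 3 arrays. Gbp2, Gbp3, Oasl2, Ifih1 and Psmb8 are dark red in wild-type LIF, whereas Ifitm1, Ifitm2 and Ifitm3 are reddest in Nat1-null LIF and Sting1 and Oas1a in Nat1-null 2i+LIF.

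In LIF, loss of Nat1 went with lower signal of class I presentation genes and with higher signal of the Ifitm genes, Mavs, Ifnar2, Irf9 and Stat2. By limma, with Benjamini-Hochberg adjustment across every gene tested, 7 of the 28 genes rose and 19 fell in Nat1-null LIF against wild-type LIF, beside 33.9% of all genes called higher and 32.9% called lower. Irf1 and Irf3 did not pass. The median log2 difference of the 28 genes was -1.09, against 0.02 over all genes. Among the 20 genes well above background on every array, 7 rose and 11 fell, with a median of -0.60. A fit of the array's 19001 such genes alone called 7929 higher and 5499 lower, with a median of 0.11. Among the 20 bright genes, all 4 transport and class I genes (Tap2, B2m, H2-K1 and H2-D1) and both immunoproteasome genes (Psmb9 and Psmb10) fell, 3 of 6 effectors rose and 3 fell, and 2 of 4 transcription factors rose and 0 fell.

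In 2i+LIF the same comparison of genotypes gave smaller and mixed differences. Of the 28 genes, 11 rose and 6 fell in Nat1-null 2i+LIF against wild-type 2i+LIF, beside 21% of all genes called higher and 22.6% called lower. The median difference was 0.26, against -0.01 over all genes, and among the 20 bright genes 9 rose and 3 fell. The fit of the array's 19001 bright genes alone called 5069 higher and 4226 lower. Among the 20 bright genes the rises were led by Sting1, Oas1a, Bst2 and Irf1. Among all 28 genes the 6 falls were B2m, Nlrc5, Psmb9, Ifit2, Tap1 and Ifnar1, of which B2m, Psmb9 and Ifnar1 were bright. Ifit2 and Tap1 passed the filter through the wild-type groups alone, so their falls are descriptions. Leaving out replicate 1 of Nat1-null 2i+LIF lowered the count of falls to 3.

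**Figure D2:**
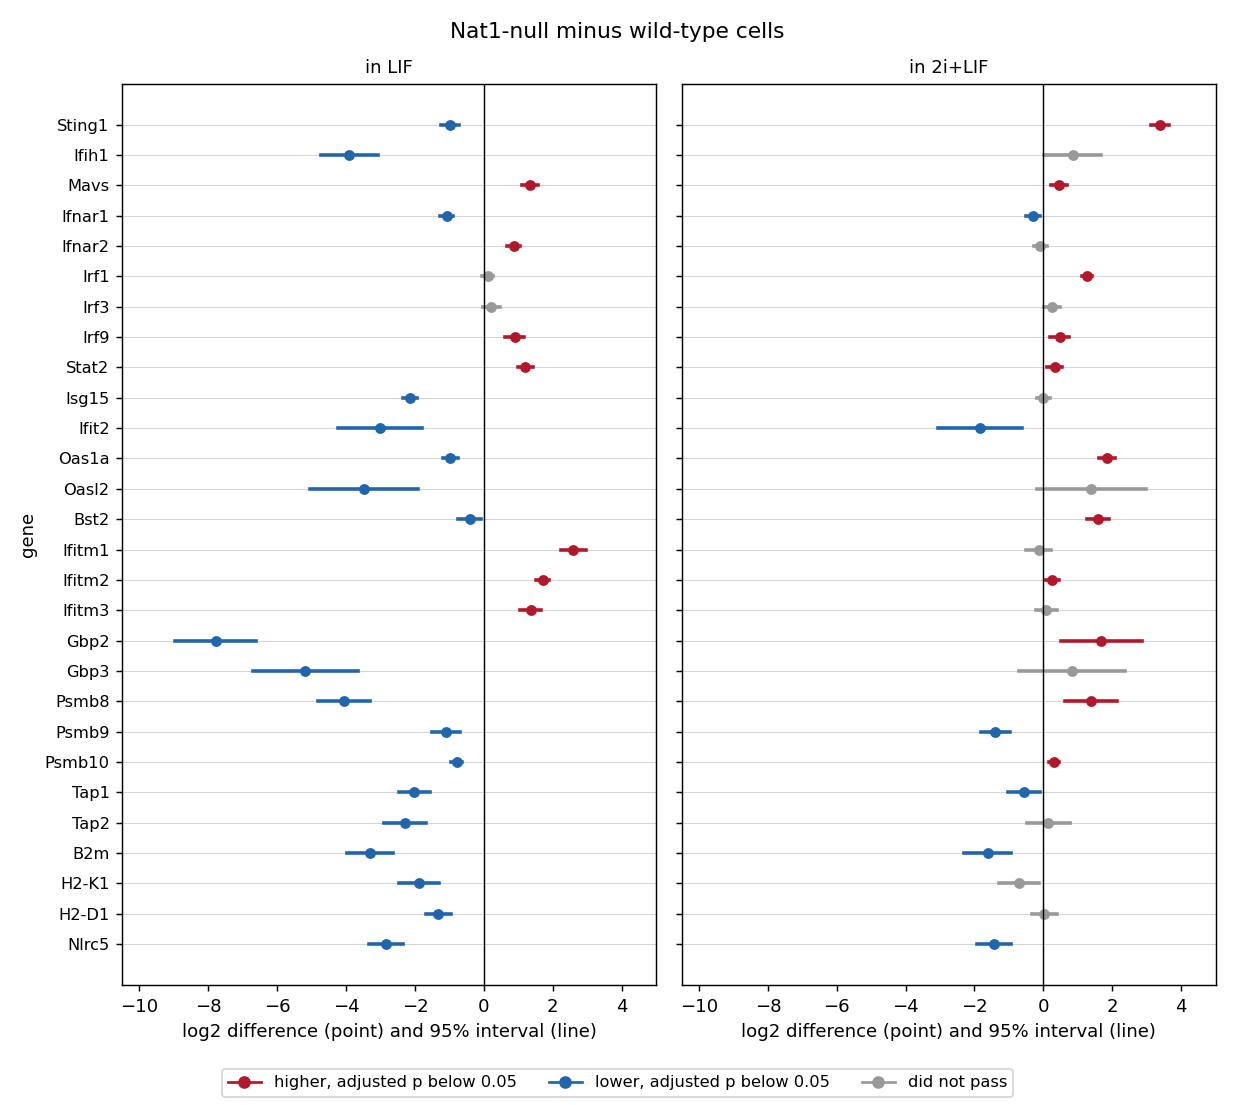
Difference between Nat1-null and wild-type cells (log2, horizontal axis) for the 28 tested genes, in LIF (left panel) and in 2i+LIF (right panel), as points with 95% intervals from the fit to all 12 arrays; red and blue mark genes that passed at an adjusted p of 0.05. Most genes lie left of 0 in LIF, Gbp2 farthest at -7.79, and Sting1 lies farthest right in 2i+LIF at 3.39.

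In wild-type cells, both bright immunoproteasome genes and 3 of 4 bright transport and class I genes were lower with 2i. Of 6 bright effectors, 3 were lower and 2 higher. Slide and medium coincide in wild-type cells, so differences with 2i there, here and below, cannot be told apart from the slide. In wild-type 2i+LIF against wild-type LIF, 6 of the 28 genes rose and 19 fell, beside 35% of all genes called higher and 27.2% called lower. The median difference was -1.13, against 0.06 over all genes, and 6 of the 20 bright genes rose and 12 fell. The fit of the array's 19001 bright genes alone called 8178 higher and 4633 lower. This comparison and that of genotypes in LIF share the wild-type LIF arrays, so each is described by its own values. Without scaling between arrays the median over all genes moved by -0.57, and the split of all calls was 2239 higher and 15244 lower, against 8565 higher and 6662 lower with it. The members then split into 1 rise and 20 falls.

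In Nat1-null cells, where both media were on the same slide, fewer of the genes were called with 2i than in wild-type cells. The shares of all genes called were also smaller than in wild-type cells (35% higher and 27.2% lower there). In Nat1-null 2i+LIF against Nat1-null LIF, 6 of the 28 rose and 9 fell, beside 21.4% of all genes called higher and 15.8% called lower, and the median was -0.15 against 0.05 over all genes. Sting1 and Oas1a rose and Ifitm1 fell by more than the other called genes. A fit of the 6 Nat1-null arrays alone left 2 rises (Sting1 and Oas1a) and 5 falls among these genes.

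**Figure D3:**
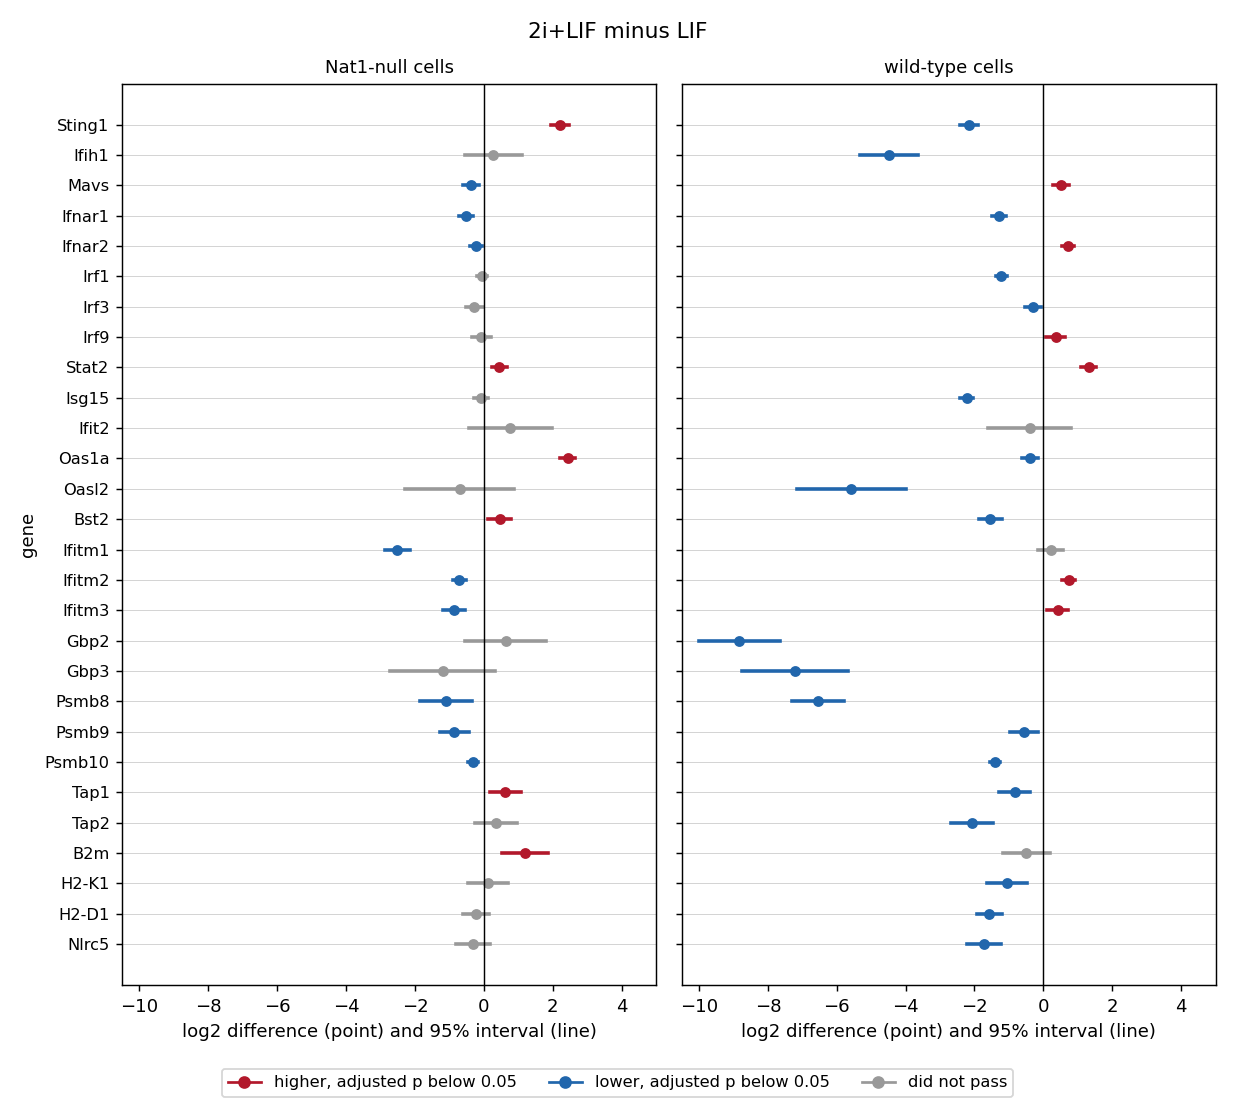
Difference between 2i+LIF and LIF (log2, horizontal axis) for the 28 tested genes in Nat1-null cells (left panel) and wild-type cells (right panel), drawn as in the plot of genotype differences. In wild-type cells Gbp2, Gbp3 and Psmb8 lie beyond -6, whereas in Nat1-null cells no gene lies beyond 3 in either direction.

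For most of the genes the difference with 2i was not the same in both genotypes. In wild-type cells that difference cannot be told apart from the slide. The interaction, the change with 2i in Nat1-null cells minus that in wild-type cells, passed for 24 of 28 genes (18 positive and 6 negative), beside 49.7% of all genes, 23.6% positive and 26.1% negative. The median was 1.26, against -0.03 over all genes, and it was 0.93 among the 20 bright genes, of which 11 were positive and 6 negative. In the fit of the array's 19001 bright genes alone, 4291 were positive and 6039 negative. Of the 28 genes, those with no call were Irf3, Irf9, Ifit2 and Psmb9. The 24 include Ifih1, Oasl2, Gbp2, Gbp3, Psmb8 and Nlrc5, which passed the filter through wild-type LIF alone. That count and the median of 1.26 are therefore descriptions.

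Among sensors and adaptors, Sting1, which relays signals from cytosolic DNA sensing, changed in opposite directions with 2i in the 2 genotypes. Its levels were 1.58, 1.33 and 1.54 in Nat1-null 2i+LIF, -0.79, -0.46 and -0.96 in Nat1-null LIF, -1.81, -1.95 and -1.94 in wild-type 2i+LIF, and 0.20, 0.24 and 0.32 in wild-type LIF. The 4 groups did not overlap, with Nat1-null 2i+LIF highest and wild-type 2i+LIF lowest. Sting1 was 10.5-fold higher in Nat1-null 2i+LIF than in wild-type 2i+LIF (log2 difference 3.39, SE 0.12, limma adjusted p = 9.5e-08) and 1.99-fold lower in LIF. With 2i it rose by 2.22 in Nat1-null cells and differed by -2.16 in wild-type cells, so that the interaction was 4.38 (SE 0.17, limma adjusted p = 9.0e-08).

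Ifih1, a sensor of double-stranded RNA in the cytosol, was well above background in wild-type LIF only, by the brighter of its 2 probes. Its levels there were -2.78, -2.98 and -2.61, and the other 3 groups, at 0 of 3 arrays well above background each, ranged from -7.64 to -6.03. The other probe was well above background on 0 of 12 arrays and averaged -7.52 in wild-type LIF, so that it gives no level to set beside these. Where a group had no array well above background, a fold was computed against the dimmest measurable spot of each of its arrays (the lowest one well above background), or against the gene itself if that was brighter. On that basis Ifih1 was at least 4.55-fold lower in Nat1-null LIF and at least 4.63-fold lower in wild-type 2i+LIF than in wild-type LIF. Mavs, the mitochondrial adaptor through which Ifih1 signals, moved the other way. It measured 3.45, 3.10 and 3.49 in Nat1-null LIF against 1.98, 2.01 and 2.02 in wild-type LIF, which is 2.53-fold higher (log2 difference 1.34, SE 0.10, limma adjusted p = 1.5e-06). In 2i+LIF, Mavs was 1.36-fold higher in Nat1-null cells. Its rise of 0.52 with 2i in wild-type cells became -0.04 without scaling between arrays. Its fall of 0.37 in Nat1-null cells was lost without replicate 1 or 3 of Nat1-null LIF or replicate 2 of Nat1-null 2i+LIF (limma adjusted p from 0.0598 to 0.0632). Tlr3, an endosomal receptor for double-stranded RNA, was well above background on 1 of 3 wild-type LIF arrays and on 0 of the other 9.

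The 2 chains of the type I interferon receptor differed in direction. Ifnar1 measured 0.39, 0.31 and 0.30 in Nat1-null LIF against 1.42, 1.36 and 1.44 in wild-type LIF, and -0.29, -0.16 and -0.11 in Nat1-null 2i+LIF against 0.30, -0.05 and 0.11 in wild-type 2i+LIF. It was 2.11-fold lower in Nat1-null cells in LIF (log2 difference -1.07, limma adjusted p = 2.3e-06). With its other 2 probes that difference was smaller, at -0.40 (limma adjusted p = 7.9e-04) and at -0.46, which was not called (limma adjusted p = 0.0588). The difference of -0.30 in 2i+LIF was not called without replicate 1 of Nat1-null 2i+LIF or of wild-type 2i+LIF (limma adjusted p = 0.0666 and 0.0565), and it was 0.13 with another of its 3 probes. Ifnar2 measured 2.41, 2.62 and 2.34 in Nat1-null LIF against 1.56, 1.57 and 1.65 in wild-type LIF, which is 1.82-fold higher (limma adjusted p = 6.6e-06). With 2i, Ifnar2 was 1.65-fold higher in wild-type cells (log2 difference 0.72). Without scaling between arrays Ifnar2 was 0.15 higher there, which was not called (limma adjusted p = 0.193). Its difference of -0.23 with 2i in Nat1-null cells passed narrowly (limma adjusted p = 0.049) and was lost on leaving out any single array other than replicate 3 of Nat1-null LIF (limma adjusted p from 0.0509 to 0.139).

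Of the 4 tested transcription factors, 2 rose and 0 fell in Nat1-null LIF against wild-type LIF (all genes, 33.9% and 32.9%). Irf9 and Stat2, which act at the ISRE, were both higher in Nat1-null LIF. Stat2 measured 2.69, 3.09 and 2.69 in Nat1-null LIF against 1.62, 1.57 and 1.66 in wild-type LIF, a 2.31-fold rise (limma adjusted p = 2.5e-06). Irf9 measured 1.34, 1.10 and 1.43 in Nat1-null LIF against 0.29, 0.41 and 0.47 in wild-type LIF, a 1.87-fold rise (limma adjusted p = 1.0e-04). In both genes no Nat1-null LIF array overlapped a wild-type LIF array. With 2i, Stat2 was 2.50-fold higher in wild-type cells and 1.36-fold higher in Nat1-null cells. The call in Nat1-null cells was lost in the 6 Nat1-null arrays alone (limma adjusted p = 0.0645) and without scaling between arrays (limma adjusted p = 0.132). The rise of Irf9 with 2i in wild-type cells (0.36) turned to -0.21 without scaling and was lost without replicate 1 or 2 of wild-type LIF or any replicate of wild-type 2i+LIF (limma adjusted p from 0.0553 to 0.093).

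Irf1, which is induced by interferon gamma and acts on class I genes, was lower in wild-type 2i+LIF than in each of the other groups. It measured 4.02, 3.86 and 4.07 in Nat1-null 2i+LIF, 4.02, 4.0 and 4.10 in Nat1-null LIF, 2.68, 2.74 and 2.72 in wild-type 2i+LIF, and 3.87, 3.91 and 4.01 in wild-type LIF. Only the wild-type 2i+LIF arrays stood apart from the rest. Irf1 was thus 2.32-fold lower with 2i in wild-type cells (limma adjusted p = 3.1e-07), a difference that cannot be told apart from the slide. The change in Nat1-null cells was -0.06 (limma adjusted p = 0.55), and the interaction was 1.16 (SE 0.09, limma adjusted p = 7.2e-06). Irf3, the factor that Sting1 and Mavs activate by phosphorylation, ranged from 3.82 in wild-type 2i+LIF to 4.48 in Nat1-null LIF. It passed in a single comparison, with a difference of -0.31 with 2i in wild-type cells, and without any single one of the 6 arrays compared that call was lost (limma adjusted p from 0.0566 to 0.0698). Irf7, which amplifies the interferon response, was well above background on 0 of 12 arrays.

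Among effectors, the guanylate-binding proteins Gbp2 and Gbp3, interferon-induced GTPases that act on vacuoles of intracellular pathogens, showed the widest differences of all the genes. Gbp2 measured -5.59, -4.01 and -5.09 in Nat1-null 2i+LIF, -5.91, -4.69 and -6.02 in Nat1-null LIF, -5.57, -7.27 and -6.90 in wild-type 2i+LIF, and 2.25, 2.20 and 2.31 in wild-type LIF. It was well above background on 1 of 3 arrays in each Nat1-null group and on 0 of 3 in wild-type 2i+LIF, so that it was measured throughout in wild-type LIF alone. Gbp2 was at least 152-fold lower in wild-type 2i+LIF than in wild-type LIF. The difference between Nat1-null LIF and wild-type LIF was -7.79 (SE 0.53), and it was -5.48 with normexp background correction and -7.05 with values below the lowest measurable spot raised to it. Gbp2 was at least 1.07-fold higher in Nat1-null 2i+LIF than in wild-type 2i+LIF, and that call was lost without replicate 2 of Nat1-null 2i+LIF or replicate 2 or 3 of wild-type 2i+LIF (limma adjusted p from 0.0814 to 0.0985).

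Gbp3 measured -5.80, -5.37 and -4.96 in Nat1-null 2i+LIF, -5.13, -5.19 and -2.23 in Nat1-null LIF, -6.60, -6.47 and -5.57 in wild-type 2i+LIF, and 0.94, 0.93 and 1.13 in wild-type LIF. Replicate 3 of Nat1-null LIF stood above the other 2 of its group, and no array of another group reached the wild-type LIF range. Gbp3 was at least 63.9-fold lower in wild-type 2i+LIF than in wild-type LIF, and the difference between Nat1-null LIF and wild-type LIF was -5.18 (SE 0.68). The sequences of the probes were not used here, and hybridisation between close relatives such as Gbp2 and Gbp3, H2-K1 and H2-D1, or the Ifitm genes was not tested.

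Isg15, a ubiquitin-like protein attached to other proteins after interferon, was low in 3 groups and high in wild-type LIF. Its levels were -1.71, -1.54 and -1.54 in Nat1-null 2i+LIF, -1.50, -1.53 and -1.52 in Nat1-null LIF, -1.61, -1.71 and -1.47 in wild-type 2i+LIF, and 0.47, 0.68 and 0.73 in wild-type LIF. It was well above background on all 12 arrays, and the arrays of the 3 low groups all lay between -1.71 and -1.47. Isg15 was 4.42-fold lower in Nat1-null LIF and 4.68-fold lower in wild-type 2i+LIF than in wild-type LIF (limma adjusted p = 2.1e-08 and 4.0e-08). Oasl2, a relative of the 2'-5' oligoadenylate synthetases, measured -0.91, -0.78 and -0.80 in wild-type LIF, the group through which it passed the filter, and was at least 18-fold lower in wild-type 2i+LIF. The levels of Oasl2 in Nat1-null LIF were -5.54, -4.56 and -2.84, with 2 of 3 arrays well above background. Its difference of -3.48 from wild-type LIF was -2.01 with replicate 3 alone, the array of that group in row 2 of the slide.

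Oas1a, a synthetase of 2'-5' oligoadenylates that activate RNase L, was highest in Nat1-null 2i+LIF. Its levels were 3.97, 3.65 and 3.99 there, 1.38, 1.32 and 1.61 in Nat1-null LIF, 2.02, 2.02 and 2.00 in wild-type 2i+LIF, and 2.32, 2.43 and 2.47 in wild-type LIF. The groups did not overlap. Within the slide, 2i raised Oas1a 5.40-fold in Nat1-null cells (log2 difference 2.43, SE 0.10, limma adjusted p = 3.0e-07), and it passed in the 6 Nat1-null arrays alone (limma adjusted p = 0.00101). In wild-type cells the difference with 2i was -0.39, or -0.07 with its other probe (limma adjusted p = 0.0075 and 0.67). Bst2 (tetherin), which holds budding virus at the cell surface, measured 1.61, 2.03 and 1.50 in Nat1-null 2i+LIF, 1.32, 1.27 and 1.18 in Nat1-null LIF, 0.30, 0.07 and 0.03 in wild-type 2i+LIF, and 1.46, 1.87 and 1.69 in wild-type LIF. As with Irf1, wild-type 2i+LIF was the low group. Bst2 was 3.00-fold higher in Nat1-null 2i+LIF than in wild-type 2i+LIF (limma adjusted p = 2.5e-05). Its smaller difference of -0.41 in LIF was lost without replicate 2 or 3 of either group (limma adjusted p from 0.0578 to 0.115).

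The Ifitm genes, which encode membrane proteins that block viral entry, rose together in Nat1-null LIF. Ifitm1 measured 3.50, 3.10 and 3.35 in Nat1-null 2i+LIF, 6.11, 5.41 and 5.98 in Nat1-null LIF, 3.44, 3.45 and 3.46 in wild-type 2i+LIF, and 3.19, 3.23 and 3.29 in wild-type LIF. Nat1-null LIF stood alone, and the other 3 groups lay between 3.10 and 3.50. Ifitm1 was 6.06-fold higher in Nat1-null LIF than in wild-type LIF (limma adjusted p = 3.8e-07), and 2i lowered it 5.73-fold in Nat1-null cells (limma adjusted p = 3.4e-06, and 0.00247 in the 6 Nat1-null arrays alone). Ifitm2 averaged 5.92 ± 0.17 in Nat1-null LIF against 4.22 ± 0.04 in wild-type LIF, and Ifitm3 averaged 5.14 ± 0.32 against 3.78 ± 0.04. These were rises of 3.27-fold and 2.58-fold (limma adjusted p = 5.7e-08 and 1.1e-05). With 2i both fell in Nat1-null cells, by 0.71 and 0.86 on the log2 scale. In wild-type cells Ifitm2 and Ifitm3 rose by 0.74 and 0.42, values that were 0.17 and -0.15 without scaling between arrays. The rise of Ifitm3 was also lost without replicate 2 or 3 of wild-type 2i+LIF or replicate 1 or 3 of wild-type LIF (limma adjusted p from 0.0546 to 0.0603).

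Of the Ifit genes, which encode proteins that bind foreign RNA, Ifit2 was well above background on all 6 wild-type arrays, and Ifit1 and Ifit3 were near background. Ifit2 measured -6.12, -3.97 and -5.97 in Nat1-null 2i+LIF, -7.00, -5.81 and -5.58 in Nat1-null LIF, -3.86, -3.45 and -3.26 in wild-type 2i+LIF, and -3.14, -3.28 and -2.94 in wild-type LIF. Both Nat1-null groups lay below both wild-type groups. Ifit2 was at least 3.61-fold lower in Nat1-null LIF than in wild-type LIF. In 2i+LIF, where 1 of 3 Nat1-null arrays was well above background, the difference was -1.83, likewise a description. Its call was lost without replicate 2 or 3 of wild-type 2i+LIF or replicate 1 or 3 of Nat1-null 2i+LIF. Ifit1 and Ifit3 were well above background on 2 of 3 wild-type LIF arrays each. Ifit3 was also well above background on replicate 2 of Nat1-null 2i+LIF, at -1.13 against -6.19 and -6.92 on the other 2 arrays of that group.

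**Figure D4:**
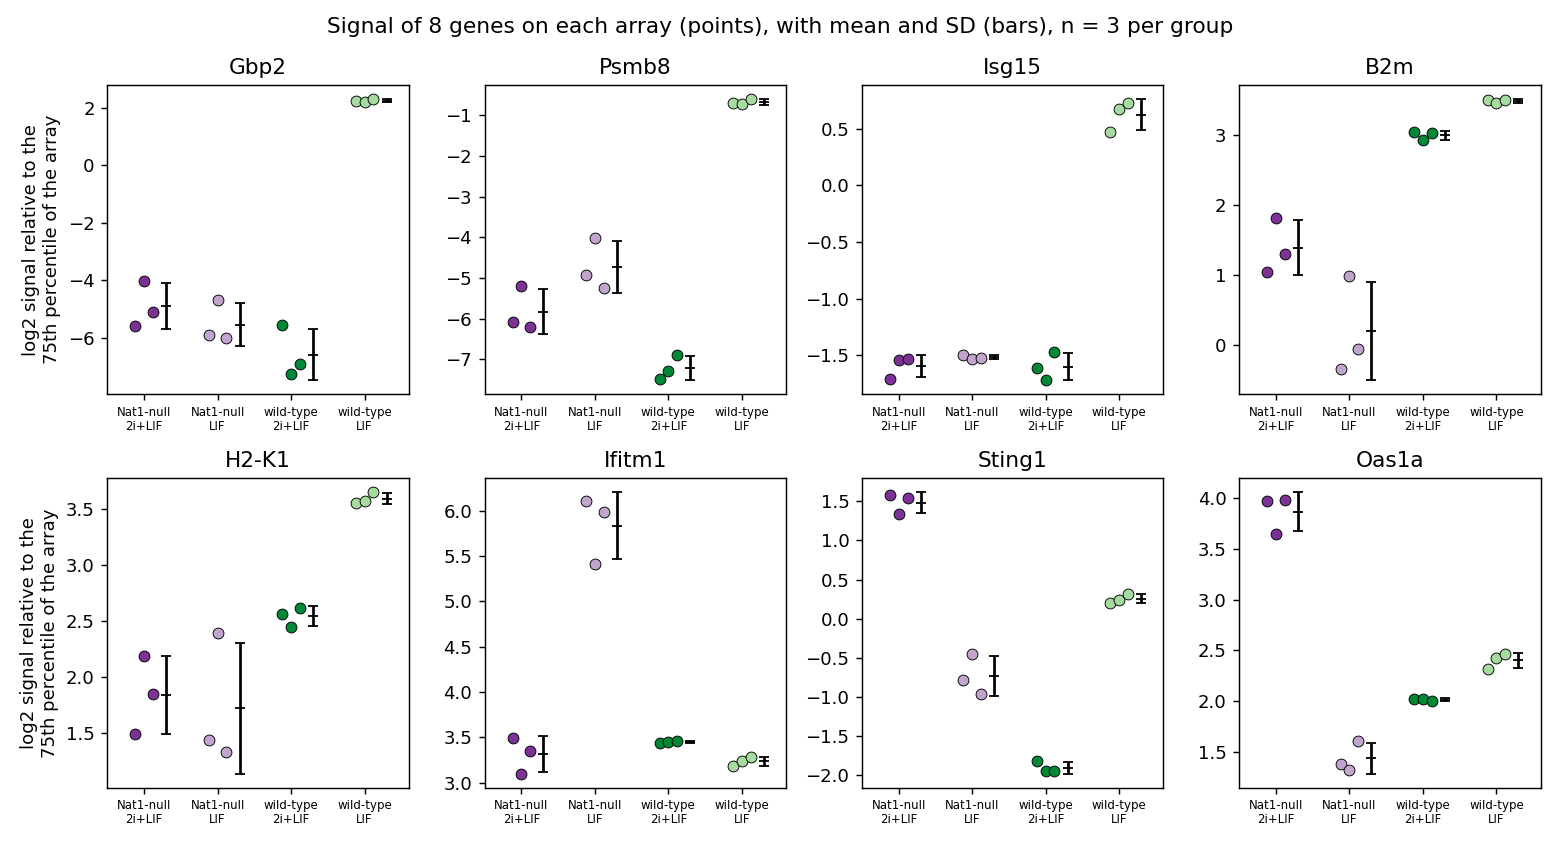
Log2 signal of 8 genes relative to the 75th percentile of the array (vertical axis, scales differ between panels) on each of the 12 arrays (points) with group mean and SD (bars, n = 3). Gbp2, Psmb8 and Isg15 are high in wild-type LIF alone, B2m is lowest in Nat1-null LIF, Ifitm1 is high in Nat1-null LIF alone, and Sting1 and Oas1a are highest in Nat1-null 2i+LIF.

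Promoter sequences are shown for effectors that fell or rose together and for 1 immunoproteasome gene, so that their ISRE content can be read beside the values above. The windows cover 250 bases before to 50 after the transcription start in RefSeq's annotation of assembly GRCm38.p6, and 29 of the 32 genes had one that was searched. The ISRE was searched on both strands as GAAA, any 2 bases and GAAA, and GAS as TTC, any 3 bases and GAA, which is its own reverse complement. An ISRE match stood in at least 1 window of 12 of the 29 genes, beside 3.993% of 27025 genes in the table, and a GAS match in 8 of 29, beside 9.554%. The 12 genes were Ifih1, B2m, Gbp2, Gbp3, Isg15, Oas1a, Ifitm2, Ifitm3, Bst2, Stat2, Ifit1 and Ifit3, of which Oas1a, Ifitm3 and Bst2 also held a GAS match. The printed windows are chr3:142620413-142620712 (+ strand) for Gbp2, chr3:142559794-142560093 (+ strand) for the Gbp3 window with matches, chr4:156200769-156201068 (- strand) for Isg15, chr5:120907476-120907775 (- strand) for Oas1a, chr7:140967826-140968125 (+ strand) for Ifitm1, chr7:141010695-141010994 (- strand) for Ifitm3 and chr17:34187281-34187580 (- strand) for Psmb9. Capitals mark ISRE matches (on either strand) and, in Oas1a and Ifitm3, also the GAS match.
Gbp2: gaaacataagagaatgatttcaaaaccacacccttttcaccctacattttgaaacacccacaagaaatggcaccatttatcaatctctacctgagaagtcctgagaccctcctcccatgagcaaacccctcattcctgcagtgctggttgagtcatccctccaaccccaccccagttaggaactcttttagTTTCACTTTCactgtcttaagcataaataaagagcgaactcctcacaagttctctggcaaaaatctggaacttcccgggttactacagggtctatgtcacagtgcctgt
Gbp3: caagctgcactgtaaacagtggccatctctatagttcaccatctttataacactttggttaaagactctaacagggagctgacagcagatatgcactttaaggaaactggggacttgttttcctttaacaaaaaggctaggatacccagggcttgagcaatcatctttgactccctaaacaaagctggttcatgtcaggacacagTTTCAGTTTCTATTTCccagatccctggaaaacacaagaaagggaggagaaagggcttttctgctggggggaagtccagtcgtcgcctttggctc
Isg15: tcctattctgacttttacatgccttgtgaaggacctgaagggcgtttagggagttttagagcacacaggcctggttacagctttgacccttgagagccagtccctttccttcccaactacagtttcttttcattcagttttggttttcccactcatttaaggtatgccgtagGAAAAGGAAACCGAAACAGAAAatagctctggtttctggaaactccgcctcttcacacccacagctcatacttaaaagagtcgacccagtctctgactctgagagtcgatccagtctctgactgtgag
Oas1a: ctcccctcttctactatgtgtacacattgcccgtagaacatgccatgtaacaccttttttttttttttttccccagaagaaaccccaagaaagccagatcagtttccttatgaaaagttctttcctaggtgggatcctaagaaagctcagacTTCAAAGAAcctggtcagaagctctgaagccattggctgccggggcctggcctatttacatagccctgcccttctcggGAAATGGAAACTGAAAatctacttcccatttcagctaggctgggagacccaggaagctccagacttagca
Ifitm1: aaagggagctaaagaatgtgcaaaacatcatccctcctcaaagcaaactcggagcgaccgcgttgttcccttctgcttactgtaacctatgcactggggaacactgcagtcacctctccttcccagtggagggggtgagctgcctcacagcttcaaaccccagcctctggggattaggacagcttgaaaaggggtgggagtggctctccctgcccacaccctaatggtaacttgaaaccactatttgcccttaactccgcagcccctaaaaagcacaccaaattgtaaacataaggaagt
Ifitm3: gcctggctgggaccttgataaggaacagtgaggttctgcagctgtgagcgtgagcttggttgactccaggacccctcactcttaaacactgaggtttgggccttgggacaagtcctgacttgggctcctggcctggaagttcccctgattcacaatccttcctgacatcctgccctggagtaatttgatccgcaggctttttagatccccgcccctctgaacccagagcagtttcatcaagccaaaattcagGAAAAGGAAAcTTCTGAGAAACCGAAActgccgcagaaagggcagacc
Psmb9: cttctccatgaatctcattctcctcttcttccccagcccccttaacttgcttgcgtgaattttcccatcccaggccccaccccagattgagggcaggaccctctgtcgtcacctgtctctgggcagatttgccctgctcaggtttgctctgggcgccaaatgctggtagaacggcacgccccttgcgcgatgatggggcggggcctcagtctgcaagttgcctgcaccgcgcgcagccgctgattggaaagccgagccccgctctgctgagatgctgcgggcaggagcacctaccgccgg

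Gbp2, Gbp3 and Isg15, which were lower in Nat1-null LIF than in wild-type LIF, thus hold 1, 2 and 3 ISRE matches (overlapping matches counted separately), but so do Ifitm3 (2) and Stat2 (1), which rose there. Ifitm1, which rose most in Nat1-null LIF, and Psmb9, which fell, had no match of either motif in these windows. A match describes the letters of the window and not a bound site.

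The immunoproteasome subunits, which replace constitutive subunits and change the peptides made for class I, were lower in Nat1-null LIF and in wild-type 2i+LIF than in wild-type LIF, of which Psmb9 and Psmb10 were bright on all arrays. Psmb8 measured -6.09, -5.20 and -6.19 in Nat1-null 2i+LIF, -4.93, -4.01 and -5.25 in Nat1-null LIF, -7.47, -7.30 and -6.90 in wild-type 2i+LIF, and -0.70, -0.72 and -0.60 in wild-type LIF. In Nat1-null LIF 2 of 3 arrays were well above background, and in each 2i+LIF group 0 of 3 were. Psmb8 was at least 20.1-fold lower in wild-type 2i+LIF than in wild-type LIF, and differed by -4.06 between Nat1-null LIF and wild-type LIF (SE 0.34). Its call in 2i+LIF between genotypes (1.39) compares groups that are both below background, and no fold is given. Its difference of -1.10 between Nat1-null 2i+LIF and Nat1-null LIF was lost without replicate 2 of Nat1-null LIF or replicate 1 or 3 of Nat1-null 2i+LIF (limma adjusted p from 0.07 to 0.0918).

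Psmb9, which shares a divergent promoter region with Tap1, was measured on all arrays. It was -2.64, -1.99 and -2.40 in Nat1-null 2i+LIF, -1.61, -1.08 and -1.76 in Nat1-null LIF, -1.02, -0.97 and -0.86 in wild-type 2i+LIF, and -0.41, -0.39 and -0.36 in wild-type LIF. The groups did not overlap, and Psmb9 fell with loss of Nat1 in both media, by 1.39 in 2i+LIF and by 1.10 in LIF (limma adjusted p = 2.3e-04 and 4.7e-04). The interaction did not pass (-0.29, SE 0.26, limma adjusted p = 0.39). Its fall of 0.56 with 2i in wild-type cells was lost without any of the wild-type LIF arrays or replicate 1 or 2 of wild-type 2i+LIF (limma adjusted p from 0.0515 to 0.0677). Psmb10 averaged 4.89 ± 0.05 in Nat1-null LIF against 5.68 ± 0.06 in wild-type LIF, 1.73-fold lower (limma adjusted p = 3.0e-06), and in 2i+LIF averaged 4.56 ± 0.10 in Nat1-null against 4.26 ± 0.07 in wild-type cells, 1.23-fold higher (limma adjusted p = 0.0047).

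Among class I genes, B2m, the invariant light chain of class I molecules, differed most by genotype. It measured 1.05, 1.82 and 1.30 in Nat1-null 2i+LIF, -0.35, 0.99 and -0.07 in Nat1-null LIF, 3.05, 2.93 and 3.03 in wild-type 2i+LIF, and 3.51, 3.46 and 3.51 in wild-type LIF. Every Nat1-null array lay below every wild-type array, and replicate 2 was the highest in each Nat1-null group. B2m was 3.06-fold lower in Nat1-null cells in 2i+LIF and 9.87-fold lower in LIF (limma adjusted p = 0.0019 and 5.9e-06). 2i raised it by 1.20 in Nat1-null cells (limma adjusted p = 0.012), a call that was lost in the 6 Nat1-null arrays alone (limma adjusted p = 0.0914). The difference of -0.49 with 2i in wild-type cells did not pass (limma adjusted p = 0.19).

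The heavy chains H2-K1 and H2-D1 were highest in wild-type LIF. H2-K1 measured 1.48, 2.19 and 1.84 in Nat1-null 2i+LIF, 1.44, 2.39 and 1.33 in Nat1-null LIF, 2.56, 2.44 and 2.62 in wild-type 2i+LIF, and 3.56, 3.57 and 3.65 in wild-type LIF. It was 3.67-fold lower in Nat1-null LIF than in wild-type LIF (limma adjusted p = 1.1e-04). In 2i+LIF the difference of -0.71 lay at the threshold (limma adjusted p = 0.051), and it passed with the deposited table (limma adjusted p = 0.0477), with normexp background correction (0.0347) and in the 6 arrays compared alone (0.027). The interaction of H2-K1 was 1.17 (SE 0.37, limma adjusted p = 0.024). That call was lost without replicate 1 or 3 of Nat1-null LIF, replicate 2 of either 2i+LIF group or replicate 3 of wild-type LIF (limma adjusted p from 0.05 to 0.0555). H2-D1 averaged 0.43 ± 0.34 in Nat1-null LIF, 0.17 ± 0.05 in wild-type 2i+LIF and 1.74 ± 0.07 in wild-type LIF. It was 2.49-fold lower with loss of Nat1 in LIF and 2.96-fold lower with 2i in wild-type cells (limma adjusted p = 6.0e-05 and 2.4e-05).

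The 2 chains of the peptide transporter were also lower in Nat1-null LIF than in wild-type LIF. Tap2 measured -3.97, -3.08 and -3.99 in Nat1-null LIF, -3.37, -3.59 and -3.43 in wild-type 2i+LIF, and -1.72, -1.22 and -1.25 in wild-type LIF. It was 4.88-fold lower in Nat1-null LIF and 4.20-fold lower in wild-type 2i+LIF than in wild-type LIF (limma adjusted p = 4.1e-05 and 1.1e-04). Tap1 differed by -2.02 between Nat1-null LIF, with 2 of 3 arrays well above background, and wild-type LIF. Its difference of -0.57 between genotypes in 2i+LIF was lost on leaving out any of 9 single arrays (all 6 wild-type arrays, replicates 1 and 3 of Nat1-null 2i+LIF and replicate 1 of Nat1-null LIF), and was 0.01 with values below the lowest measurable spot raised to it. Its difference of 0.62 with 2i in Nat1-null cells was lost on leaving out any of 7 (replicates 2 and 3 of Nat1-null 2i+LIF and of wild-type LIF, replicates 1 and 3 of Nat1-null LIF, and replicate 2 of wild-type 2i+LIF). Nlrc5, a transactivator of class I genes, measured -5.71, -5.45 and -5.88 in Nat1-null LIF against -2.92, -2.88 and -2.74 in wild-type LIF, at least 4.38-fold lower. Its other probe did not show this size, with averages of -5.53 in Nat1-null LIF (1 of 3 arrays well above background) against -5.10 in wild-type LIF (2 of 3). In 2i+LIF its difference of -1.44 between genotypes was 0.14 with low values raised in that way. A chromosome 17 region holds Psmb9, Tap1, Psmb8, Tap2, H2-K1 and H2-D1 (GRCm38.p6 gene spans between positions 33996012 and 35267497). Its bright genes Psmb9, Tap2, H2-K1 and H2-D1 were each lower in Nat1-null LIF than in wild-type LIF (all genes, 32.9% called lower). The falls of Psmb8 and Tap1, which passed the filter through wild-type groups alone, are descriptions. B2m and Psmb10, on other chromosomes, were lower as well, and a part of gene location was not tested.

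Markers of other cell types also differed between the groups. The 14 tested of 16 fibroblast or feeder markers averaged -2.78 to -2.56 on Nat1-null 2i+LIF arrays, -3.15 to -2.87 on Nat1-null LIF arrays, -2.38 to -2.21 on wild-type 2i+LIF arrays and 0.87 to 1.13 on wild-type LIF arrays. Of the 14, 1 rose and 11 fell in Nat1-null LIF against wild-type LIF (all genes, 33.9% and 32.9%), and 2 rose and 10 fell in wild-type 2i+LIF against wild-type LIF (all genes, 35% and 27.2%). Col3a1, Col6a1, Postn and Dcn passed the dim filter through wild-type LIF alone and had to be higher there. These counts and the list means are therefore descriptions. The 3 brightest did not move together. Fn1 (fibronectin) averaged 6.69 in Nat1-null LIF, 6.96 in wild-type 2i+LIF and 5.79 in wild-type LIF. Tagln (transgelin) averaged 2.80, 2.65 and 7.24 in that order of groups, and Acta2, the smooth muscle actin, -3.32, -1.76 and 6.30. Lum was well above background on 0 of 12 arrays. The 8 tested of 10 trophoblast markers averaged -0.22 to 0.40, -1.57 to -1.05, -1.31 to -1.25 and 1.72 to 1.78 on the arrays of Nat1-null 2i+LIF, Nat1-null LIF, wild-type 2i+LIF and wild-type LIF. Hand1 among them passed the dim filter through wild-type LIF alone. Of the 3 brightest, Krt18 averaged 3.26, 2.01, 1.37 and 7.26 in that order. Tfap2c averaged 4.06, 2.46, 4.38 and 3.93, and Ascl2 averaged 2.03, 0.33, 0.11 and 1.03, so neither was highest in wild-type LIF. Stem cell markers (10 of 10 tested) averaged 5.26 to 5.38, 5.50 to 5.76, 5.07 to 5.16 and 4.24 to 4.33 in that order of groups, lowest in wild-type LIF. Of 10 immune cell markers 4 were tested, with list means from 0.20 to 0.82 over all arrays. All 4, of which Itgam, Cd3e and Csf1r were the 3 brightest, were well above background on each of the 12 arrays. Lyz2, which was not tested, was well above background on 0 of 12 arrays. Wild-type LIF thus had the highest mean of the fibroblast and trophoblast lists, though not of every gene in them. It was also highest for 8 of the 20 bright interferon and presentation genes, and Nat1-null LIF was highest for another 8. The part of other cells in the values above was not tested, and in bulk RNA fewer cells of a type and less RNA per cell cannot be told apart.

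**Figure D5:**
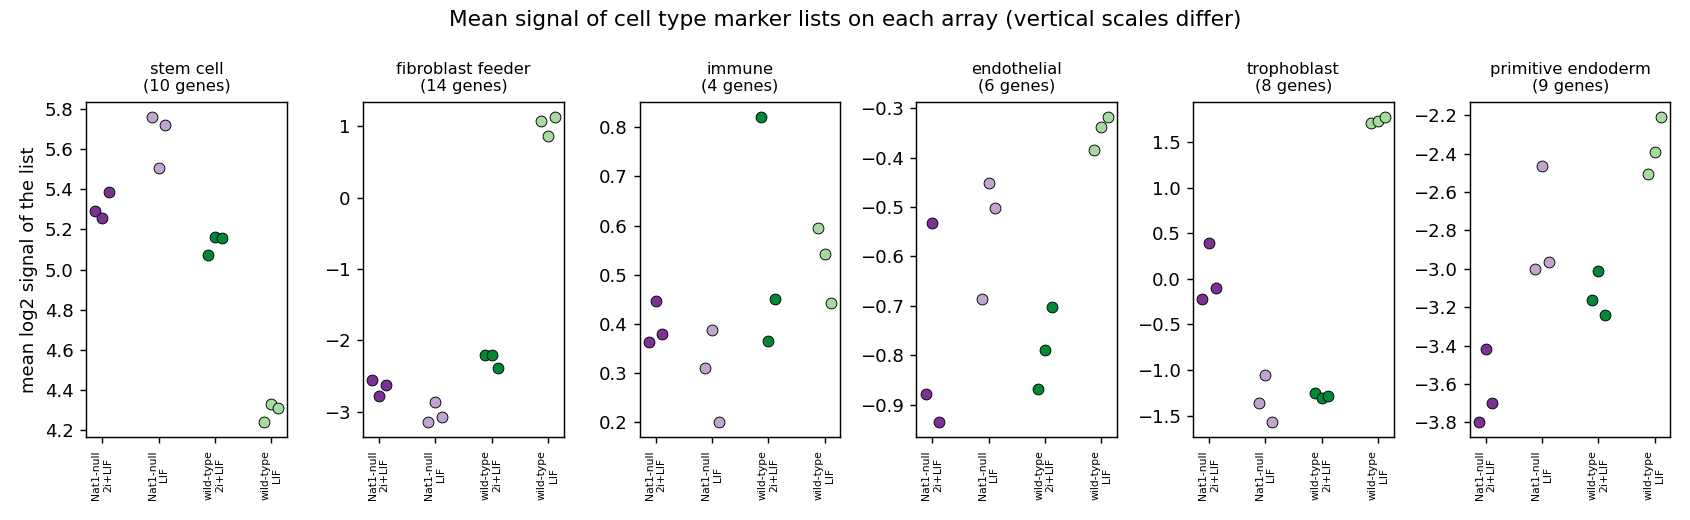
Mean log2 signal of the tested genes of 6 cell type marker lists (vertical axis, scales differ between panels) on each of the 12 arrays (points), by group. Wild-type LIF is the highest group for fibroblast or feeder and trophoblast markers and the lowest for stem cell markers.

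Other genes of the same pathways were counted from 5 lists. Beside the counts stand the shares of all genes called, 33.9% higher and 32.9% lower in Nat1-null LIF against wild-type LIF, 21% and 22.6% in Nat1-null 2i+LIF against wild-type 2i+LIF, and 35% and 27.2% in wild-type 2i+LIF against wild-type LIF. Of 41 further interferon-stimulated genes tested, 13 rose and 23 fell in Nat1-null LIF against wild-type LIF, 12 rose and 8 fell in Nat1-null 2i+LIF against wild-type 2i+LIF, and 7 rose and 22 fell in wild-type 2i+LIF against wild-type LIF. Cxcl10, a chemokine, was at least 119-fold lower in Nat1-null LIF, and fell by 6.60 in wild-type 2i+LIF, where 2 of 3 arrays were well above background. Cxcl10 passed the dim filter through wild-type LIF alone. These falls, and the counts against that group in these lists, are thus descriptions. Irgm1, an immunity-related GTPase, fell by 5.83 with 2i in wild-type cells and was 2.44 higher in Nat1-null 2i+LIF than in wild-type 2i+LIF. In the opposite direction, Oas2, another oligoadenylate synthetase, rose by 3.26 in Nat1-null LIF against wild-type LIF, and fell by 2.42 with 2i in Nat1-null cells.

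Of 24 further sensing genes, 12 rose and 7 fell in Nat1-null LIF, and 8 rose and 2 fell in Nat1-null 2i+LIF, each against wild-type cells in the same medium (all genes, 33.9% and 32.9%, and 21% and 22.6%). Cgas, the DNA sensor upstream of Sting1, rose by 1.41 in Nat1-null LIF and by 1.64 in wild-type 2i+LIF against wild-type LIF. Zbp1, a sensor of Z-form nucleic acid, rose by 2.76 in Nat1-null 2i+LIF against wild-type 2i+LIF. The 2 falls in that comparison were Tlr7 (-0.48) and Adar (-0.17). Ifi204 was at least 1.50-fold lower in Nat1-null LIF than in wild-type LIF, and Ddx58 differed by -2.20 with 2i in wild-type cells. Of 19 interferon, receptor and signalling genes, 9 rose and 5 fell in Nat1-null LIF, and 10 rose and 1 fell in Nat1-null 2i+LIF, read against the same shares. The 1 that fell was Irf5 (-1.46), while Tyk2, a kinase of the type I receptor, rose in both media, by 0.93 in 2i+LIF and by 1.37 in LIF.

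Of 26 further presentation genes, 9 rose and 9 fell in Nat1-null LIF, and 4 rose and 6 fell in Nat1-null 2i+LIF, both near the shares of all genes (33.9% and 32.9%, and 21% and 22.6%). The class II genes H2-Ab1 and H2-Eb1 did not follow class I. H2-Ab1 rose by 2.15 in Nat1-null LIF and by 2.92 in wild-type 2i+LIF against wild-type LIF, and H2-Eb1 rose with 2i by 2.20 in Nat1-null and by 2.36 in wild-type cells. Tapbp, the chaperone that joins class I molecules to the transporter, rose by 1.59 in Nat1-null 2i+LIF against wild-type 2i+LIF, as did Psme1, a proteasome activator subunit, by 1.06. In that comparison H2-Oa differed by -1.21 and H2-DMa by -1.06, though H2-DMa rose by 2.01 in Nat1-null LIF against wild-type LIF. H2-M3 differed by -2.35 in Nat1-null LIF against wild-type LIF, where Erap1 was at least 2.00-fold lower. Tapbpl differed by -2.92 with 2i in wild-type cells. Of 15 NF-kappaB pathway genes, 7 rose and 3 fell in Nat1-null LIF, and 9 rose and 3 fell in Nat1-null 2i+LIF, beside the same shares. Relb, a subunit of the noncanonical NF-kappaB complex, rose by 1.86 in Nat1-null 2i+LIF against wild-type 2i+LIF, and Nfkb1 rose by 2.05 in Nat1-null LIF against wild-type LIF. Tnfrsf1a was lower in Nat1-null cells in both media, at -0.90 in LIF and -0.66 in 2i+LIF. Il1r1 was at least 2.35-fold lower in Nat1-null 2i+LIF than in wild-type 2i+LIF.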

How the data were processed

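The scanner files deposited by the authors contain, per the file headers, intensity values from Agilent Feature Extraction 10.7.3.1 (a processed signal after background subtraction, and median signals of each spot and its surroundings). Their deposited table of log2 values puts the 75th percentile of every array at 0. It correlated at 1 with the values recomputed here and served as an alternative. Probes carry no symbols in the scanner files and were named through RefSeq transcripts of assembly GRCm38.p6 (27656 of 55681 probes, 98.7% of those designed to curated mRNAs).

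Control spots and outlier flags were removed, log2 processed signals were averaged per probe and set relative to each array's 75th percentile. Complete values existed for 54229 probes, and 33293 of these passed the filter of being well above background on every array of 1 or more groups. The probe with the highest mean stood for each gene (24463 genes). limma 3.58.1 in R 4.3.3 fitted 4 group means to all 12 arrays, two-sided; p-values were adjusted by Benjamini-Hochberg across the genes tested, with calls at adjusted p below 0.05. The fit was tested on simulated data. Python 3.11.15 (pandas 2.3.3, numpy 2.4.6) made the tables, and matplotlib 3.10.9 drew the plots.

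The 32 genes, the pathway and marker lists, and the tests were chosen with earlier results of these data known. All 32 genes are named whatever their values. Eif4g2 is named as the check of the labels. Genes named from each pathway list are among the 2 largest called rises and 2 largest called falls per comparison, not all of which are named. From the fibroblast, trophoblast and immune lists the text names the 3 brightest genes and those never above background. It also names genes there that passed the dim filter through wild-type LIF alone. Further lists examined (endothelial and primitive endoderm markers) are shown in the plot of marker lists alone.

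Replicate numbers recur in all groups. Residuals of same-numbered arrays correlated above 0.1 in 1 of 18 pairs (range -0.07 to 0.30), so the numbers do not pair the arrays. Alternatives were the deposited table, normexp with offset 50, quantile normalization, no scaling, no dim filter, a stricter filter, other probes, array weights, a replicate block, the arrays compared alone and each array left out. The normexp alternative used median signals, since mean signals were not used here. After seeing the data, array row 2 of slide 3 alone and values raised to the lowest measurable spot were added.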

Additional observations from a re-analysis of the deposited data

Results flagged for a closer look

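For 24 of the 28 tested genes, the change with 2i in Nat1-null cells differed from the change with 2i in wild-type cells by a test of that difference (the interaction of limma, adjusted p below 0.05). The difference, on the log2 scale and as Nat1-null minus wild type, was 4.38 for Sting1, 4.76 for Ifih1 and -0.89 for Mavs among sensors and adaptors. It was 0.77 for Ifnar1 and -0.95 for Ifnar2, and 1.16 for Irf1 and -0.88 for Stat2. Among effectors it was 2.15 for Isg15, 2.82 for Oas1a, 4.88 for Oasl2, 2.00 for Bst2, 9.47 for Gbp2 and 6.02 for Gbp3, against -2.73 for Ifitm1, -1.44 for Ifitm2 and -1.28 for Ifitm3. It was 5.45 for Psmb8 and 1.09 for Psmb10, and 1.45 for Tap1, 2.43 for Tap2, 1.69 for B2m, 1.17 for H2-K1, 1.35 for H2-D1 and 1.40 for Nlrc5. The sizes for Ifih1, Oasl2, Gbp2, Gbp3, Psmb8 and Nlrc5 rest on groups near background and depend on the background subtraction. These 6 genes also passed the dim filter through wild-type LIF alone, so that their interactions are descriptions. The change in wild-type cells cannot be told apart from the slide.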

How the results depend on the processing

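Of 140 differences tested (28 genes in 5 comparisons), 107 were called, and 75 of these were called in the same direction under every alternative run on them. Several called differences turned sign. With values below the lowest measurable spot raised to it, Tap1 (0.015) and Nlrc5 (0.14) turned between genotypes in 2i+LIF, and Psmb8 (0.052) turned with 2i in Nat1-null cells. Without scaling between arrays, Mavs (-0.045), Irf9 (-0.21) and Ifitm3 (-0.15) turned with 2i in wild-type cells. Ifnar1 in 2i+LIF was 0.13 with another probe. With normexp, Nlrc5 with 2i in Nat1-null cells, not called before, was 0.18 (limma adjusted p = 0.0224). Counts moved as follows. With genes well above background on all 12 arrays, 11 fell in Nat1-null LIF, 12 fell in wild-type 2i+LIF, and 11 had a positive interaction. With low values raised, 3 fell between genotypes in 2i+LIF. Without scaling, 1 rose with 2i in wild-type and 3 in Nat1-null cells. In the 6 Nat1-null arrays alone, 2 rose and 5 fell with 2i, and 4846 of all genes were called, against 9079. For these alternatives the cause was not tested beyond the smaller number of genes or arrays. Without scaling, the split of all calls was 6238 higher and 9637 lower for genotype in LIF (8294 and 8055 with scaling), 9896 and 3147 for genotype in 2i+LIF (5133 and 5533), 1911 and 6714 for 2i in Nat1-null cells (5224 and 3855), and 10272 and 2810 for the interaction (5769 and 6397). Leaving out single arrays gave 14942 to 16567 genes called for genotype in LIF (7 to 8 members up, 18 to 19 down) and 8970 to 11890 in 2i+LIF (9 to 12 up, 3 to 7 down). For 2i it gave 7334 to 10120 in Nat1-null cells (4 to 6 up, 7 to 8 down), 13753 to 16088 in wild-type cells (4 to 6 up, 17 to 20 down), and 10912 to 12951 for the interaction (17 to 18 up, 6 to 7 down). The replicate block left 16229, 10459, 15147, 8789 and 11990 genes called for genotype in LIF, genotype in 2i+LIF, 2i in wild-type cells, 2i in Nat1-null cells and the interaction. It lost 1 member call (Ifnar2 with 2i in Nat1-null cells, limma adjusted p = 0.076), gained H2-K1 between genotypes in 2i+LIF (0.0456) and the interaction of Irf9 (0.0457), and changed no other call. Signal over background limits the sizes for Gbp2, Gbp3, Psmb8, Ifih1, Oasl2, Nlrc5 and Ifit2.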
